A study of Mus musculus with 238 samples.

Results

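The 8 genes described here make and carry the monoamine transmitters of the brain. They are Th, Ddc, Dbh, Slc6a2, Tph2, Slc6a4, Fev and Slc18a2, chosen by name from the 21076 gene rows of a count table and followed through every brain region and both interventions of the study. Th encodes tyrosine hydroxylase, the rate-limiting enzyme of dopamine and noradrenaline synthesis, and Tph2 encodes the neuronal tryptophan hydroxylase that starts serotonin synthesis. Ddc, the aromatic amino acid decarboxylase, completes both dopamine and serotonin, and Dbh, dopamine beta-hydroxylase, turns dopamine into noradrenaline. Slc6a2 and Slc6a4 are the plasma membrane carriers that take up noradrenaline and serotonin, Slc18a2 is the vesicular monoamine transporter shared by all monoamine neurons, and Fev, also known as Pet1, is an ETS-family transcription factor of serotonin neurons.

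The cell bodies of these neurons form small nuclei: serotonin neurons in the raphe of pons and medulla, noradrenaline neurons in the locus coeruleus of the pons and in groups of the medulla, and dopamine neurons in the ventral midbrain, hypothalamus and olfactory bulb. Their axons reach most of the brain, but most of their messenger RNA stays near the cell body, so the RNA of a tissue piece reflects whether it held such a nucleus. In bulk tissue, fewer cells of a type and less RNA per cell cannot be told apart.

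RNA was sequenced from 15 brain regions of 16 mice of strain C57BL/6JN, all 19 months old and with no genetic change named in the labels. In the diet experiment, 5 females under dietary restriction (aDR, 73 brain libraries) were compared with 4 females that ate ad libitum (AL, 58 libraries), and the livers of these 9 mice were sequenced too (their restricted group is labelled DR). In the plasma experiment, 3 males received retro-orbital injections of plasma from young mice (YMP, 44 libraries) and 4 males received PBS (54 libraries). Sex was the same as experiment, so no difference between the experiments can be separated from sex. Treatment and regional tests were made in each experiment alone, while a control mean (the mean of the AL and the PBS group mean), the likeness of regional patterns and the correlations across mice use both. Libraries were made without strand information. The 238 libraries held 0.606 to 32.4 M counts (M, 1e+06) with a median of 8.44 M, and 6 were under 2 M.

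Levels are given as CPM, the count of a gene divided by the library's own total and scaled to 1e+06. A library with at most 3 counts of a gene is treated as being at the counting floor, which in pons libraries corresponded to 0.210 to 1.64 CPM. All 16 mice are separate animals and served as the replicates.

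Promoter sequences are shown for the 5 genes on which the regional results turn, because motifs of factors tied to these neurons (the cyclic AMP response element, ETS factors such as Fev, and GATA factors) can be read in them. They come from RefSeq on build GRCm38.p6 and run 5′ to 3′ toward the transcription start, up to the first annotated exon base. Capitals mark motif matches on either strand.
Th, chr7:142900015-142900245, minus strand: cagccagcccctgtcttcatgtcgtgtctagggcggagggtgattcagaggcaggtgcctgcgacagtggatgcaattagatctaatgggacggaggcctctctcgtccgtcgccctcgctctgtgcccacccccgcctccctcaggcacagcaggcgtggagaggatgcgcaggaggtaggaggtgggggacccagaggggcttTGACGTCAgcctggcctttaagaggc
Tph2, chr10:115185023-115185272, minus strand: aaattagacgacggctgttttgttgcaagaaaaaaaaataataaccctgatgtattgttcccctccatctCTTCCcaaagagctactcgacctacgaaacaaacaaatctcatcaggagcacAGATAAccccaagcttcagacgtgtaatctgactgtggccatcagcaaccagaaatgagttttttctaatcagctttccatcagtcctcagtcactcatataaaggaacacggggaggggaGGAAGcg
Slc6a4, chr11:76998347-76998596, plus strand: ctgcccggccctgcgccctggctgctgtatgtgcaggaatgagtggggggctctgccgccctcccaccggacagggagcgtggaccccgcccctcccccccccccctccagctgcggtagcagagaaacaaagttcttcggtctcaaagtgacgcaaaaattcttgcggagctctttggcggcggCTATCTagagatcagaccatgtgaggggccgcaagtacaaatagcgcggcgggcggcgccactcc
Fev, chr1:74885474-74885658, minus strand: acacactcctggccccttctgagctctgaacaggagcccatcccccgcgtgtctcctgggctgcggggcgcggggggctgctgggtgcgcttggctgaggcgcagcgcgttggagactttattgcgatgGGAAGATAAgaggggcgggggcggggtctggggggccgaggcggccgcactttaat
Slc18a2, chr19:59260628-59260877, plus strand: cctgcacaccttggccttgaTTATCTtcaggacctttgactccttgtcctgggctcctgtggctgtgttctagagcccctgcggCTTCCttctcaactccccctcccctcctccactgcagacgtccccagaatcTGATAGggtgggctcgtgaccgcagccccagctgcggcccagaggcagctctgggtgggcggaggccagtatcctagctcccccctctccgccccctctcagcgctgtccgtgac

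Th carried TGACGTCA, a cyclic AMP response element that reads the same on both strands, from base -45 relative to the start. The same letters were found in 1.34% of 27025 promoters over 231 bases. ETS letters (GGAAG on either strand) began at -180 and -7 in Tph2, at -121 in Fev and at -166 in Slc18a2, and stood in 63.6% of promoters over 250 bases and 51.5% over 185. GATA letters (GATAA or GATAG with A or T before them, searched on both strands) began at -128 in Tph2, -65 in Slc6a4, -118 in Fev, and -230 and -115 in Slc18a2. They stood in 27.1% of promoters over 250 bases and 22.5% over 185. The GATA and ETS matches of Fev overlap. These matches describe the letters only. The remaining genes are Ddc (chr11:11814101-11898144), Dbh (chr2:27165233-27183200) and Slc6a2 (chr8:92960079-93001667), in the GENCODE annotation of GRCm38. Among the 8 genes only Slc18a2 shares exon bases with another gene, the antisense Gm29261 (111 bases), and without strand the reads of such a pair cannot be separated.

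Some libraries stood apart and touch the results below. The summed hindbrain marker list (Hoxb3, Hoxb5, Hoxa5 and the glycine carrier Slc6a5) reached 61.5 to 120 CPM (median 80.5) in 11 of 15 libraries labelled pons. It was only 4.23, 5.83 and 4.85 CPM in the libraries labelled pons of AL mouse 68, aDR mouse 64 and YMP mouse 77. Those are also the 3 pons libraries with the highest Th. In the pons library of aDR mouse 67 the hindbrain list was 25.7 CPM, the pituitary hormone list reached 186729 CPM (at most 1862 in the other pons libraries) and the myelin list was 2763 CPM (8106 to 12592 elsewhere). One more library, cerebellum of AL mouse 68, held Dbh and Slc6a2 at levels far above the other cerebellum libraries. Most of the main counts and tests that rest on these 5 libraries are also given without them, a choice made after the values were seen. Values per library and the likeness of regional patterns include them.

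**Figure D1:**
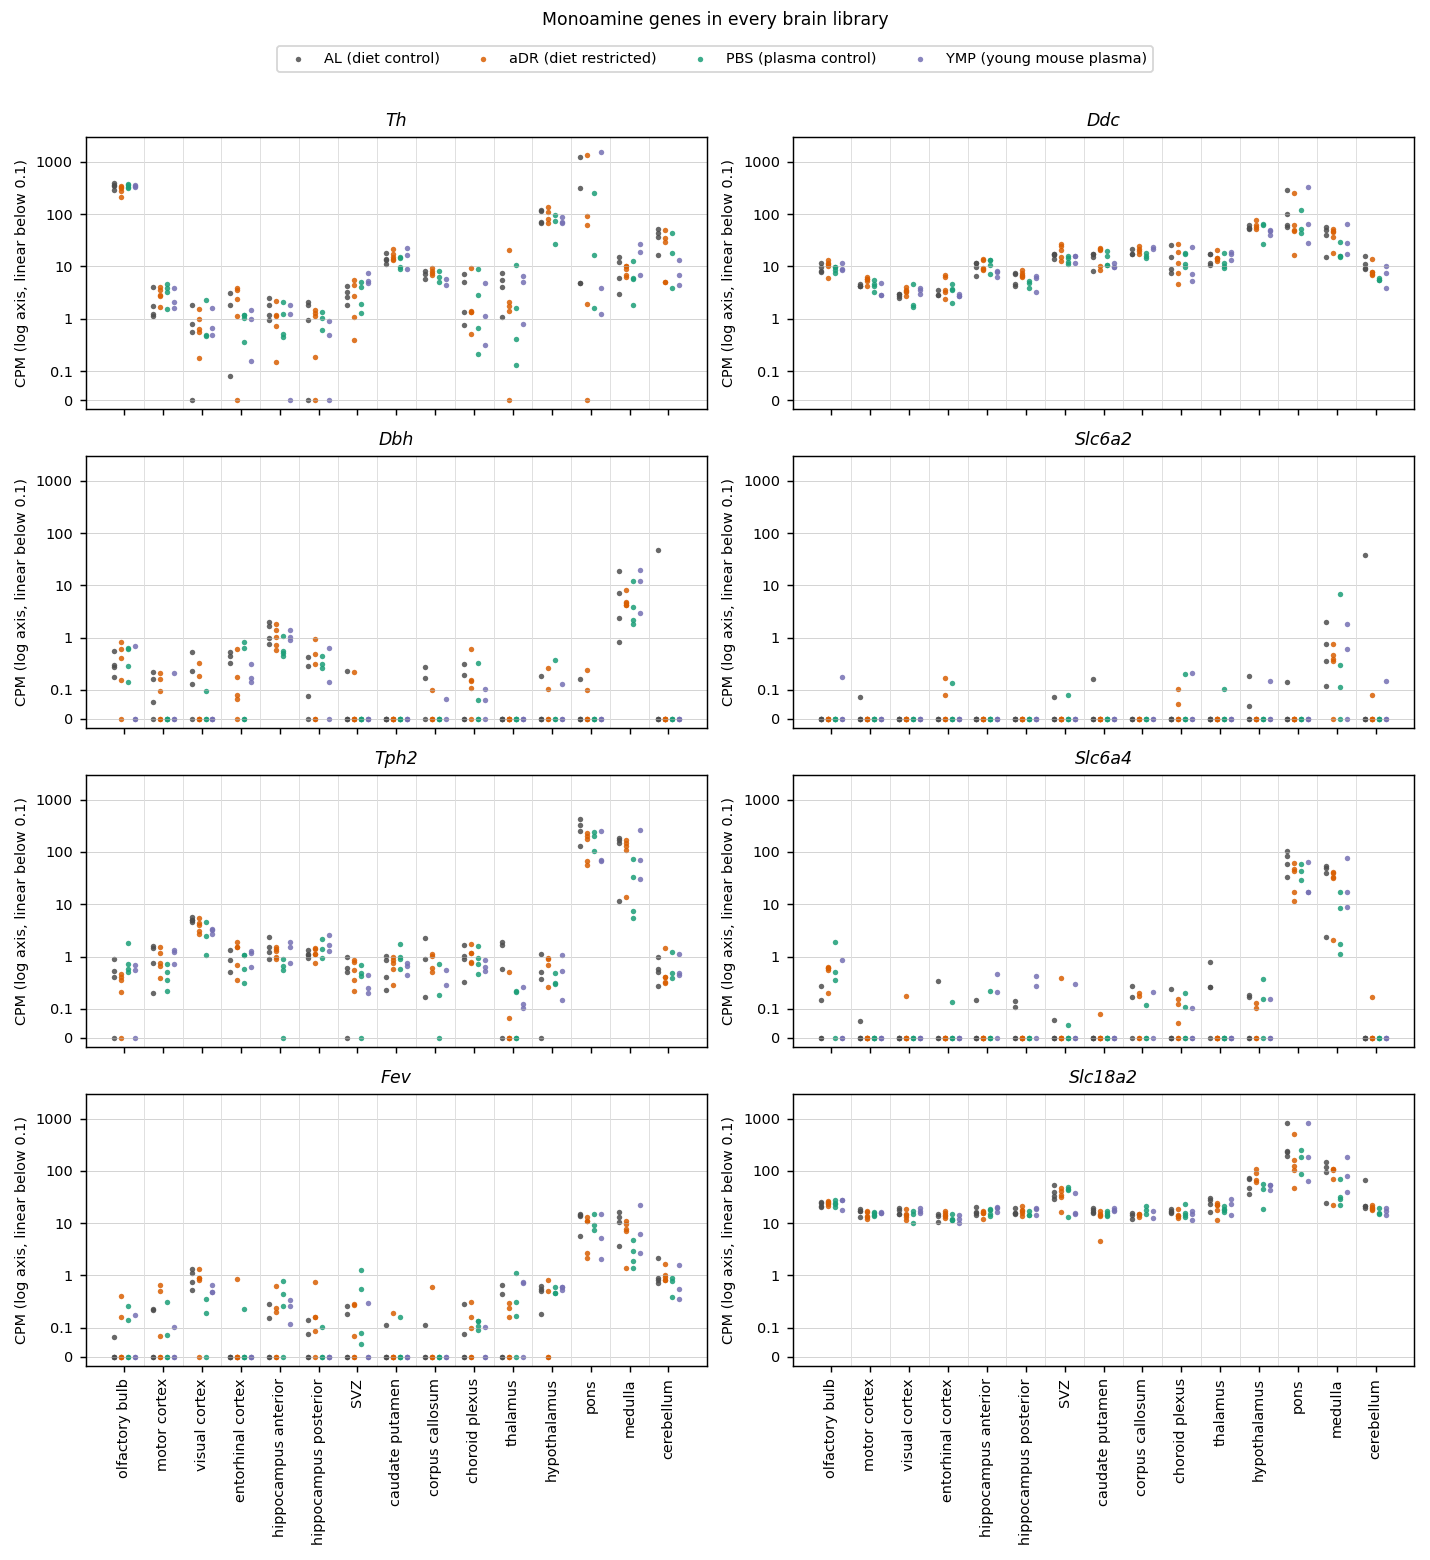
CPM of the 8 genes (log axis, linear below 0.1) in every brain library, by region (x axis) and treatment (colour), 1 point per library. Tph2 and Slc6a4 are high in pons and medulla, Th spans 0 to 1567 CPM in pons but 213 to 403 in olfactory bulb, and the single high cerebellum point of Dbh (48.4) and Slc6a2 (38.1) is AL mouse 68.

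The regional map was drawn first, to see where in the brain each gene was read. Ddc and Slc18a2 were above the counting floor in 229 of 229 brain libraries, Th in 206, Tph2 in 175, Fev in 79, Dbh in 48, Slc6a4 in 43 and Slc6a2 in 10. Pons and medulla together held 95.2% of all brain counts of Tph2, 98.4% of Slc6a4 and 83.3% of Fev, but 52.1% of Slc18a2, 41.4% of Ddc and 37.7% of Th. Olfactory bulb held a further 43.9% of the Th counts. Without the 5 libraries that stood apart, pons and medulla held 10.8% of the Th counts and olfactory bulb 63.3%, and pons and medulla held 40.6% of Slc18a2 and 30.5% of Ddc. In control mice, all 7 genes that passed the low-count filter differed between regions in AL and in PBS mice (edgeR quasi-likelihood F test, adjusted p under 0.05). That test called 98% of all genes in AL mice and 96% in PBS mice, so the count does not set these genes apart. Slc6a2 did not pass the filter.

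Each region was then compared with the mean of the other 14 within control mice. In pons 6 of 7 genes were higher in AL mice (background 28.8% of genes higher) and 6 in PBS mice (21.8%): Th, Ddc, Tph2, Slc6a4, Fev and Slc18a2. The PBS count was 5, with Th not called, without PBS mouse 84. In medulla 6 of 7 were higher in AL (31.8%) and 6 in PBS mice (30.1%), with Dbh in the place of Th. The medulla count in PBS mice was 5 without PBS mouse 76. In hypothalamus 3 were higher in AL (26.5%) and 3 in PBS mice (23.8%), namely Th, Ddc and Slc18a2, and the PBS count was 2 when either mouse 80 or mouse 84 was left out. In olfactory bulb Th was the only gene higher in AL mice (33.5%), and Th, Dbh and Slc6a4 were higher in PBS mice (32.3%). There Dbh and Slc6a4 were near the counting floor, with medians of 0.291 and 0.314 CPM and 9 and 8 of 16 libraries at it. The AL count in olfactory bulb was 2, with Dbh added, without the libraries that stood apart, and it was also 2 without AL mouse 68.

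Th was highest in olfactory bulb, where it marks dopaminergic interneurons of the glomerular layer. Its level there was 358, 344, 289 and 403 CPM in AL mice 63, 66, 68 and 69, and 322, 281, 342, 213 and 327 CPM in aDR mice 61, 62, 64, 65 and 67. PBS mice 72, 76, 80 and 84 had 325, 372, 359 and 316 CPM, and YMP mice 73, 77 and 81 had 332, 360 and 350 CPM. The 16 libraries spanned less than a doubling (212.7 to 402.6 CPM) and all groups overlapped. The Th level exceeded the mean of the other regions by a log2 difference of 5.64 in AL mice (SE 0.36, edgeR adjusted p 6.42e-19). Ddc, the next enzyme of the path, was 6.00 to 13.4 CPM in the same 16 libraries and was lower than in the other regions in AL mice (log2 difference -0.63, SE 0.28, adjusted p 0.0401). In PBS mice no member was called lower there. The AL count of lower members was 2, and it was 1 when mouse 66, 68 or 69 was left out.

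In hypothalamus, whose dopamine neurons regulate prolactin among other functions, Th ranged from 26.4 to 136 CPM (median 77.4, 14 libraries). Ddc ranged there from 26.5 to 77.0 CPM and Slc18a2 from 18.6 to 109 CPM. The order of the Th control means was olfactory bulb (346 CPM), pons (241, and 98.6 without AL mouse 68), hypothalamus (78.8), cerebellum (29.5), caudate putamen (13.1) and medulla (7.91). Control libraries of each of these regions overlapped with those of the region above it in that order, and the remaining 9 regions had means of 0.938 to 6.77 CPM. Th in cerebellum, which ranged from 3.84 to 51.6 CPM, exceeded the other regions by a log2 difference of 2.14 in AL mice (adjusted p 2.12e-04) and 2.08 (1.71e-04) without the libraries that stood apart.

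Th in pons was singled out after its values had been seen. In AL mice 63, 66, 68 and 69 it was 4.93, 4.77, 1249 and 310 CPM, and in aDR mice 61, 62, 64, 65 and 67 it was 90.9, 1.91, 1330, 63.2 and 0 CPM. PBS mice 76, 80 and 84 had 1.61, 16.3 and 254 CPM, and YMP mice 73, 77 and 81 had 1.24, 1567 and 3.82 CPM. Each group held both high and low libraries, and every pair of groups overlapped. The log2 difference of pons from the other regions was 5.87 in AL mice (SE 0.36, adjusted p 1.64e-18) and fell to 4.05 (SE 0.38, adjusted p 3.02e-12) without the libraries that stood apart. In the latter fit AL mouse 69 (310 CPM) was the only high AL pons library, beside mice 63 and 66 (4.93 and 4.77 CPM). Leaving out mouse 69 as well was not tested. PBS mice gave 4.09 (adjusted p 3.84e-10). That value rested on PBS mouse 84, without which it was 0.27 (adjusted p 0.879), while it was 4.30 to 4.80 without each of the other 3 PBS mice.

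The dopamine transporter gene Slc6a3, which is no member of the 8 and is carried by midbrain dopamine neurons, moved with Th in these pons libraries. In the 3 libraries with the highest Th it was 1039 to 1885 CPM, and in the 11 others with pons markers it was 0 to 322 CPM. In the 7 pons libraries with at least 100 Th counts there were 78.1 to 133 Slc6a3 counts per 100 Th counts. Factors of midbrain dopamine neurons lay higher in the same 3 libraries than in those 11: Pitx3 at 13.5 to 20.7 CPM against 0 to 4.44, Foxa1 at 28.5 to 36.1 against 0 to 9.42, En1 at 19.9 to 30.1 against 1.15 to 15.0, and Nr4a2 at 68.2 to 101 against 5.27 to 24.9. Ddc was 249 to 331 CPM against 28.2 to 119, and Slc18a2 501 to 823 against 63.7 to 256. Tph2 was 66.7, 235 and 432 CPM in the 3 and 67.4 to 332 CPM in the 11, so its ranges overlapped. Dbh was at 0 in all 3, and Phox2a, a factor of noradrenaline neurons, was at most 0.245 CPM in all 15 pons libraries.

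**Figure D2:**
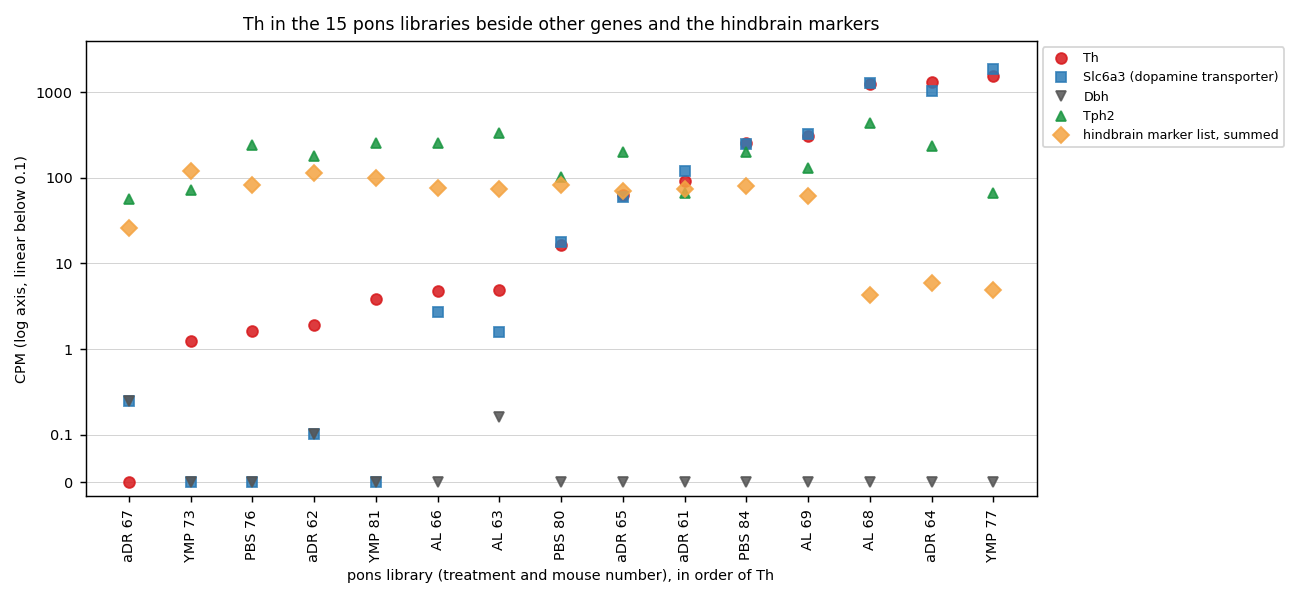
CPM (log axis, linear below 0.1) of Th, Slc6a3, Dbh, Tph2 and the summed hindbrain markers in the 15 pons libraries, 1 column per library in order of Th. Slc6a3 follows Th, the hindbrain markers drop to 4.23 to 5.83 CPM in the 3 libraries with the highest Th, and Dbh stays at 0.245 CPM or below.

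Noradrenaline genes were read in medulla and almost nowhere in pons. Dbh in medulla was 2.42, 7.17, 0.832 and 18.8 CPM in AL mice 63, 66, 68 and 69, and 4.62, 4.80, 4.16, 8.26 and 4.22 CPM in aDR mice 61, 62, 64, 65 and 67. PBS mice 72, 76, 80 and 84 had 11.97, 3.92, 2.17 and 1.83 CPM, and YMP mice 73, 77 and 81 had 12.3, 2.93 and 19.6 CPM. All 16 medulla libraries were above the counting floor and the groups overlapped. In pons, which contains the locus coeruleus, Dbh had 3 counts in all over 15 libraries, against 1388 counts over the 16 medulla libraries. The medulla CPM was 292 times the pons CPM (95% exact interval 99.8 to 1420, counting error only). In PBS mice Dbh had 0 counts over the pons libraries and 440 over those of medulla.

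Slc6a2, the noradrenaline transporter, was above the counting floor in 9 of 16 medulla libraries and in 0 of 15 pons libraries. Its medulla levels were 0.756, 0.363, 0.119 and 2.03 CPM in AL mice 63, 66, 68 and 69, and 0.385, 0, 0.361, 0.459 and 0.745 CPM in aDR mice 61, 62, 64, 65 and 67. PBS mice 72, 76, 80 and 84 had 6.79, 0.301, 0 and 0.114 CPM, and YMP mice 73, 77 and 81 had 0.613, 0 and 1.81 CPM. PBS mouse 72 was thus the highest and 220 of the 306 medulla counts were its own.

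Outside medulla the highest mean of Slc6a2, and a mean of Dbh nearly equal to that of medulla, was in cerebellum (4.76 and 6.05 CPM in control mice, against 1.31 and 6.14 in medulla). In both cases a single library carried it. Cerebellum of AL mouse 68 held 48.4 CPM of Dbh (329 counts) and 38.1 CPM of Slc6a2 (259 counts), while Dbh was at 0 in the other 14 cerebellum libraries and Slc6a2 was at 0 in 12 of them with at most 1 count. The same library held Slc18a2 at 66.6 CPM (14.2 to 21.8 in the others), while Th (51.6 CPM) was near the highest of the others (50.3) and Slc6a4 was at 0. Dbh was higher in cerebellum than in the other regions in AL mice only with this library. Low Dbh counts were also read in anterior hippocampus, at 0.440 to 2.02 CPM in 16 of 16 libraries, 14 of them above the counting floor.

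Serotonin genes were read in pons and medulla and were low elsewhere. Tph2 in pons was 332, 256, 432 and 130 CPM in AL mice 63, 66, 68 and 69, and 67.4, 178, 235, 202 and 57.1 CPM in aDR mice 61, 62, 64, 65 and 67. PBS mice 76, 80 and 84 had 239, 102 and 200 CPM, and YMP mice 73, 77 and 81 had 71.8, 66.7 and 252 CPM. The 3 highest values were those of AL mice 68, 63 and 66, and the groups overlapped through the lower AL mouse 69. Across the 13 other regions Tph2 reached at most 5.59 CPM, in visual cortex, where its control mean of 3.87 CPM was the highest outside the hindbrain. Tph2 was called higher in visual cortex than in the other regions in both AL and PBS mice.

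Slc6a4, the serotonin transporter, was 82.0, 59.1, 103 and 33.9 CPM in the pons of AL mice 63, 66, 68 and 69, and 17.3, 43.7, 61.1, 48.0 and 11.5 CPM in aDR mice 61, 62, 64, 65 and 67. PBS mice 76, 80 and 84 had 59.5, 28.6 and 43.9 CPM, and YMP mice 73, 77 and 81 had 16.9, 17.2 and 63.2 CPM. The order of the libraries was nearly that of Tph2. Olfactory bulb, at a control mean of 0.399 CPM, followed pons (56.8) and medulla (21.8).

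Fev in pons was 13.7, 14.6, 14.8 and 5.73 CPM in AL mice 63, 66, 68 and 69, and 2.73, 11.2, 13.2, 10.9 and 2.21 CPM in aDR mice 61, 62, 64, 65 and 67. PBS mice 76, 80 and 84 had 15.2, 7.47 and 9.27 CPM, and YMP mice 73, 77 and 81 had 5.28, 2.06 and 14.7 CPM. Its groups overlapped too. Fev was also read in cerebellum at 0.361 to 2.19 CPM, above the counting floor in 14 of 15 libraries, and was called higher there than in the other regions in AL and PBS mice.

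Slc18a2 in pons was 229, 193, 820 and 245 CPM in AL mice 63, 66, 68 and 69, and 103, 124, 501, 163 and 46.3 CPM in aDR mice 61, 62, 64, 65 and 67. PBS mice 76, 80 and 84 had 187, 88.8 and 256 CPM, and YMP mice 73, 77 and 81 had 63.7, 823 and 184 CPM. Ddc, which both pathways share, was 60.7, 58.0, 291 and 100 CPM in AL mice 63, 66, 68 and 69, and 47.0, 49.2, 249, 61.4 and 16.7 CPM in aDR mice 61, 62, 64, 65 and 67. PBS mice 76, 80 and 84 had 53.0, 43.1 and 119 CPM of Ddc, and YMP mice 73, 77 and 81 had 28.2, 331 and 65.4 CPM. For both genes the highest library of the AL, aDR and YMP groups was the one with low hindbrain markers. Outside the hindbrain, Slc18a2 kept a level of 12.8 to 48.4 CPM (control means) and Ddc of 2.74 to 52.9 CPM in the 13 other regions.

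Per kilobase of exon, the order within pons of AL mice by median level was Tph2 (102 CPM per kb), Th (66.7), Slc18a2 (45.4), Ddc (18.04), Slc6a4 (15.6) and Fev (8.73), with Dbh and Slc6a2 at 0. The Th median rests on a spread of 2.02 to 528 CPM per kb. In PBS mice the medians were 69.3 for Tph2, 35.8 for Slc18a2, 11.9 for Ddc, 9.68 for Slc6a4, 6.88 for Th and 5.73 for Fev. In medulla of AL mice the order was Tph2 (55.4), Slc18a2 (20.6), Ddc (10.2), Slc6a4 (9.93), Fev (7.31), Th (3.91), Dbh (1.78) and Slc6a2 (0.0890).

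Pons and medulla were compared directly because both hold serotonin and noradrenaline nuclei. In AL mice 5 of 7 genes differed (7.62% of all genes did), 4 higher in pons and Dbh lower. In PBS mice 7 of 7 differed (3.82%), 6 higher in pons and Dbh lower. The AL count was 3 without the libraries that stood apart and 3 without AL mouse 68, and the PBS count was 3 without PBS mouse 80 and 2 without PBS mouse 84. The log2 difference of Slc18a2 was 1.88 in AL (SE 0.33, adjusted p 1.42e-04) and 2.27 in PBS mice (SE 0.31, 4.38e-06), and 1.18 (0.00149) in AL mice without the libraries that stood apart. For Tph2 it was 1.13 in AL mice (adjusted p 0.0334, and 0.141 at a difference of 0.89 without those libraries) and 2.65 in PBS mice (2.80e-04). For Ddc it was 1.56 in AL mice (7.73e-04, and 0.0533 at 0.80 without them) and 1.97 in PBS mice (2.64e-05). For Th it was 5.27 in AL mice (9.40e-06) and 3.43 without those libraries (4.57e-04). In the latter fit AL mouse 69, at 310 CPM, was the only high AL pons library. In PBS mice the Th difference was 3.69 (0.00215), and it was -0.29 (0.969) without PBS mouse 84 and 4.08 (0.0685) without PBS mouse 80. Slc6a4 and Fev differed by 0.89 (SE 0.40, adjusted p 0.174) and 0.13 (SE 0.40, 0.909) in AL mice and by 2.77 (SE 0.64, 0.00949) and 2.03 (SE 0.61, 0.0492) in PBS mice. With the mouse as a block, the Fev difference in PBS mice was 1.87 (adjusted p 0.0828).

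The genes whose regional pattern was most like each member were found by the correlation of log2(mean CPM + 1) over the 15 regions in control mice, among 15408 genes. These values describe 15 points that share libraries, and no test was made. Slc6a4 was most like Irx4 (r 0.996), Hoxb5 (0.991) and Hoxb4 (0.990), homeobox genes of the hindbrain, and Hoxb5 is also in the hindbrain marker list. Tph2 was most like Irx4 (0.978), Hoxb4 (0.973) and Hoxb5os (0.972), and Fev like Irx4 (0.978), AC122252.2 (0.972) and Hoxb4 (0.965). Slc18a2 was most like Gch1 (0.931), which makes the cofactor of the hydroxylases, then Trpm8 (0.925) and Slc44a3 (0.924). Ddc was most like Snx1 (0.930), Cc2d1b (0.905) and Cct3 (0.903), and Th like Dpy19l4 (0.869), Hhat (0.854) and Prpsap1 (0.848). Dbh was most like Lbx1 (0.959), Pax2 (0.928) and Galnt15 (0.926), and Slc6a2 like Galnt15 (0.986), Tlx3 (0.974) and Cbln3 (0.969), both patterns resting on the single cerebellum library.

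Whether the genes of a transmitter varied together from mouse to mouse was examined within pons and within medulla, on log2 CPM after subtraction of the group mean. Of 23 relations, 14 passed an adjusted p of 0.05 (two-sided permutation tests within groups, 100000 resamples, Benjamini-Hochberg over the 23). Some of the 23 pairs had been planned and the others were added. These 14 include the added relations of Th with Slc6a3, Ddc and Slc18a2 in pons over all 15 libraries. Of these 3, the last 2 did not pass over the 11 libraries that did not stand apart (values below). Th in pons had been singled out from its values, so the p-values of these 3 pairs are no independent support. The relation of Tph2 with Ddc in medulla was also added. In pons, Tph2 and Slc6a4 had r = 0.990 (rho 0.982, permutation p 3.00e-05, adjusted 3.45e-04, n = 15), and r was 0.991 without the 2 libraries farthest from the median of Tph2. Tph2 and Fev had r = 0.934 (rho 0.925, permutation adjusted p 3.74e-04, 0.907 without the 2 farthest), and Slc6a4 and Fev r = 0.934 (rho 0.918, permutation adjusted p 3.74e-04, 0.895 without the 2 farthest). Over the 11 pons libraries that did not stand apart, the 3 values of r were 0.992, 0.944 and 0.944, each with an exact permutation adjusted p of 0.0208. In medulla the same pairs gave 0.989 (rho 0.979), 0.934 (0.918) and 0.946 (0.950), with permutation adjusted p of 4.34e-04, 3.74e-04 and 2.30e-04 (n = 16), and with 0.982, 0.894 and 0.911 without the 2 farthest. In the diet experiment alone the 6 values of r were 0.961 to 0.997, and in the plasma experiment alone, where no relation passed the threshold, they were 0.885 to 0.989.

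The ratio behind these values was narrow. There were 24.5 ± 1.87 Slc6a4 counts per 100 Tph2 counts in pons (SD, n = 15, range 20.2 to 27.9) and 25.3 ± 4.88 in medulla (SD, n = 16, range 15.0 to 31.5), while Tph2 itself spanned 57.1 to 432 CPM and 5.58 to 266 CPM. Tph2 in pons and Tph2 in medulla of the same mouse showed no detectable relation (r = -0.025, rho 0.046, permutation p 0.932, n = 15, and r 0.090 without the 2 farthest).

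**Figure D3:**
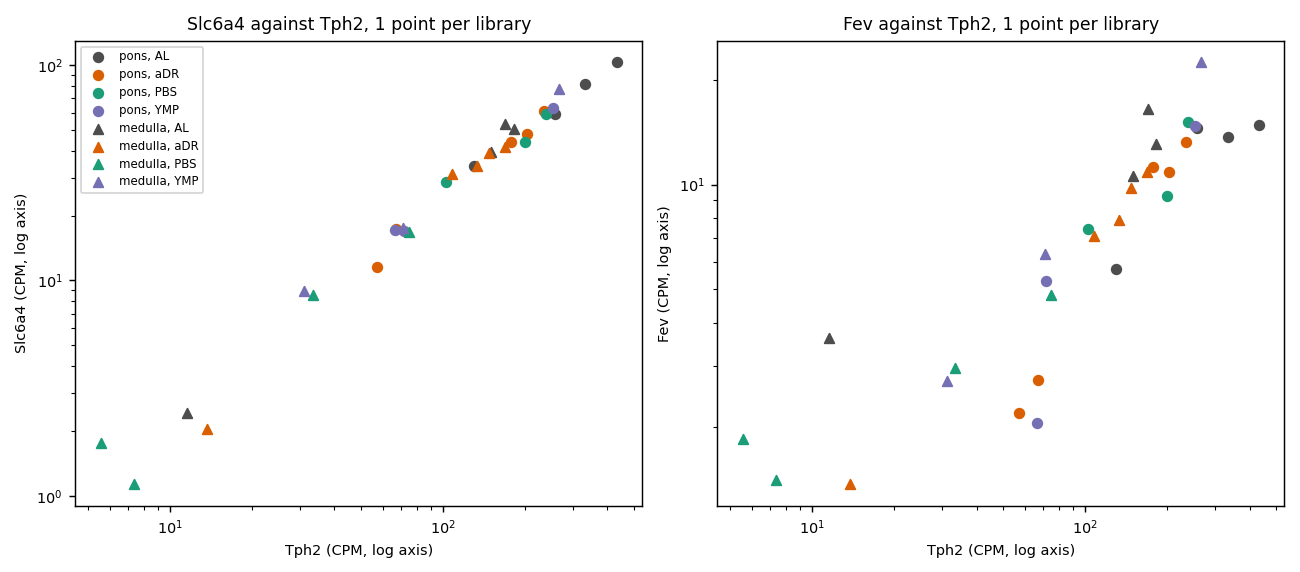
Slc6a4 (left) and Fev (right) against Tph2, both axes CPM on log scales, 1 point per library, pons as circles and medulla as triangles, coloured by treatment. Slc6a4 lies along one line with Tph2 in both regions, with r = 0.990 in pons and 0.989 in medulla, and Fev scatters more widely (0.934 and 0.934).

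Noradrenaline genes of the medulla were also related to each other. Dbh and Th had r = 0.907 (rho 0.921, permutation adjusted p 4.37e-04, n = 16, 0.886 without the 2 farthest), Dbh and Slc6a2 r = 0.774 (rho 0.685, adjusted permutation p 0.00619, 0.771 without the 2 farthest) and Th and Slc6a2 r = 0.751 (rho 0.700, adjusted permutation p 0.0225, 0.756 without the 2 farthest), although only 9 of the 16 libraries were above the counting floor for Slc6a2. There were 28 to 122 Dbh counts per 100 Th counts (median 57.7) in 13 medulla libraries. Dbh and Tph2 had r = 0.153 (rho 0.232, permutation adjusted p 0.747), so no relation between the noradrenaline and serotonin genes was detectable with this number of mice. Slc18a2 had r = 0.943 with Tph2 (rho 0.924, permutation adjusted p 3.74e-04, 0.880 without the 2 farthest) and r = 0.391 with Dbh (rho 0.462, permutation adjusted p 0.330). Ddc had r = 0.914 with Tph2 there (rho 0.894, permutation adjusted p 6.27e-04, 0.827 without the 2 farthest). The same pairs were not called in pons over all 15 libraries. Tph2 had r = 0.454 there with Slc18a2 (rho 0.546, permutation adjusted p 0.293) and 0.365 with Ddc (rho 0.386, permutation adjusted p 0.357). In pons, where 3 libraries form a cluster of their own, relations with Th are given over the other 11 libraries that held pons markers. Th and Slc6a3 had r = 0.979 (exact permutation adjusted p 0.0208), Th and Ddc 0.673 (exact permutation adjusted p 0.0792), and Th and Slc18a2 0.295 (exact permutation adjusted p 0.449). Over all 15 libraries the adjusted permutation p was 3.74e-04, 3.74e-04 and 0.00241 for these 3 pairs.

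The effect of each intervention was then tested in every region. No member was called for diet in any of 52 tests over the 15 regions (edgeR, adjusted p under 0.05; 0.0525% of all tests were called), and none for plasma in any of 53 tests (0.0127%). An unadjusted p under 0.05 was found in 3 diet tests and 8 plasma tests, against 6.24% and 6.11% of all tests. DESeq2 also called 0 members, with 3 of 110 diet and 4 of 101 plasma tests at an unadjusted p under 0.05.

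For plasma, 6 of those 8 tests were in medulla, where all 7 tested members had a positive fold change, with a median log2 difference of 1.497. The shares given above are over all regions, and none is given for medulla alone. Slc6a4, Fev, Slc18a2 and Ddc varied with Tph2 in medulla (r 0.914 to 0.989), so these tests are not independent. Fev in medulla was 1.85, 4.82, 1.41 and 2.97 CPM in PBS mice 72, 76, 80 and 84 and 22.5, 2.72 and 6.30 CPM in YMP mice 73, 77 and 81, a log2 difference of 2.08 (SE 0.64, p from edgeR 0.00866, adjusted p 0.447). Slc18a2 was 29.5, 68.7, 22.1 and 32.3 CPM against 185, 39.8 and 81.4 CPM in the same order, a log2 difference of 1.497 (SE 0.48, adjusted p 0.447). Slc6a4 was 1.76, 16.9, 1.13 and 8.57 CPM against 77.6, 8.89 and 17.4 CPM, a log2 difference of 2.67 (SE 0.89, adjusted p 0.452). For the other members, Tph2 was 5.58, 75.0, 7.35 and 33.3 CPM in PBS and 266, 31.1 and 71.4 CPM in YMP medulla (2.26, SE 0.88, adjusted p 0.497), Ddc differed by 0.97 (SE 0.39, 0.498), Th by 1.32 (SE 0.53, 0.498) and Dbh by 1.06 (SE 0.66, 0.647). YMP mouse 73 was the highest for Fev, Slc18a2, Slc6a4 and Tph2, and the groups overlapped through PBS mouse 76 and YMP mouse 77. Without YMP mouse 73 the log2 differences were 0.89 for Fev, 0.74 for Slc18a2, 1.20 for Slc6a4, 0.97 for Tph2, 0.31 for Ddc, 1.26 for Th and 1.03 for Dbh, with a median of 0.97 and no unadjusted p under 0.05. Without YMP mouse 81, Dbh differed by 0.42 and Th by 0.86. The hindbrain marker list, which holds none of these genes, was 118 to 198 CPM in PBS and 141 to 270 CPM in YMP medulla, and its part in these values was not tested. The choroid plexus markers were 9.64 to 320 CPM in PBS and 4.29 to 8.99 CPM in YMP medulla, and their part was not tested either. In medulla of the diet experiment Tph2 was 11.5, 182, 150 and 169 CPM in AL mice 63, 66, 68 and 69 and 133, 13.7, 168, 147 and 107 CPM in aDR mice 61, 62, 64, 65 and 67. Each of these groups held 1 library far below the others, and Tph2 differed by -0.10 (SE 0.58). The diet differences of the 7 members tested in medulla were -0.50 (Dbh) to 0.024 (Ddc).

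For diet the smallest p-values were those of Th and Ddc in motor cortex and Slc18a2 in hypothalamus. Th in motor cortex was 1.14, 4.06, 1.74 and 1.26 CPM in AL mice 63, 66, 68 and 69 and 3.49, 2.84, 1.64, 2.77 and 4.13 CPM in aDR mice 61, 62, 64, 65 and 67, a log2 difference of 0.73 (SE 0.33, adjusted p 0.448). Ddc was 4.25, 4.26, 4.23 and 4.59 CPM against 6.23, 4.18, 5.22, 5.86 and 5.73 CPM, a difference of 0.33 (SE 0.15, adjusted p 0.452). Slc18a2 in hypothalamus was 73.0, 70.8, 35.8 and 46.6 CPM in AL mice 63, 66, 68 and 69 and 67.3, 62.6, 92.2 and 109 CPM in aDR mice 62, 64, 65 and 67, a difference of 0.53 (SE 0.24, adjusted p 0.986). Groups overlapped for each of the 3.

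In pons, all 6 tested members had negative diet differences (-0.31 to -0.91), none of them with an unadjusted p under 0.05. Tph2 differed by -0.89 (SE 0.45, adjusted p 0.997) and Slc6a4 by -0.86 (SE 0.46, adjusted p 0.997). For each of the 6, the library of AL mouse 68 was the highest AL library. Those of aDR mice 64 and 67 were the highest and the lowest aDR libraries. All 3 are among the libraries that stood apart, and the diet differences without them are not given here. Tph2, Slc6a4 and Fev varied together in pons (r 0.934 to 0.990), so the 6 tests are not independent. The treatment difference of Th in pons followed single libraries. It was -0.31 for diet (SE 1.89) and between -3.22 and 1.53 with each mouse left out in turn, and 2.44 for plasma (SE 2.08) and -5.80 without YMP mouse 77. Ddc and Slc18a2 likewise changed sign for plasma without that mouse, from 0.94 to -0.82 and from 0.97 to -0.64. In olfactory bulb, where the spread of Th was small, the diet difference was -0.22 (SE 0.11, adjusted p 0.418) and the plasma difference 0.029 (SE 0.064, adjusted p 0.955).

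**Figure D4:**
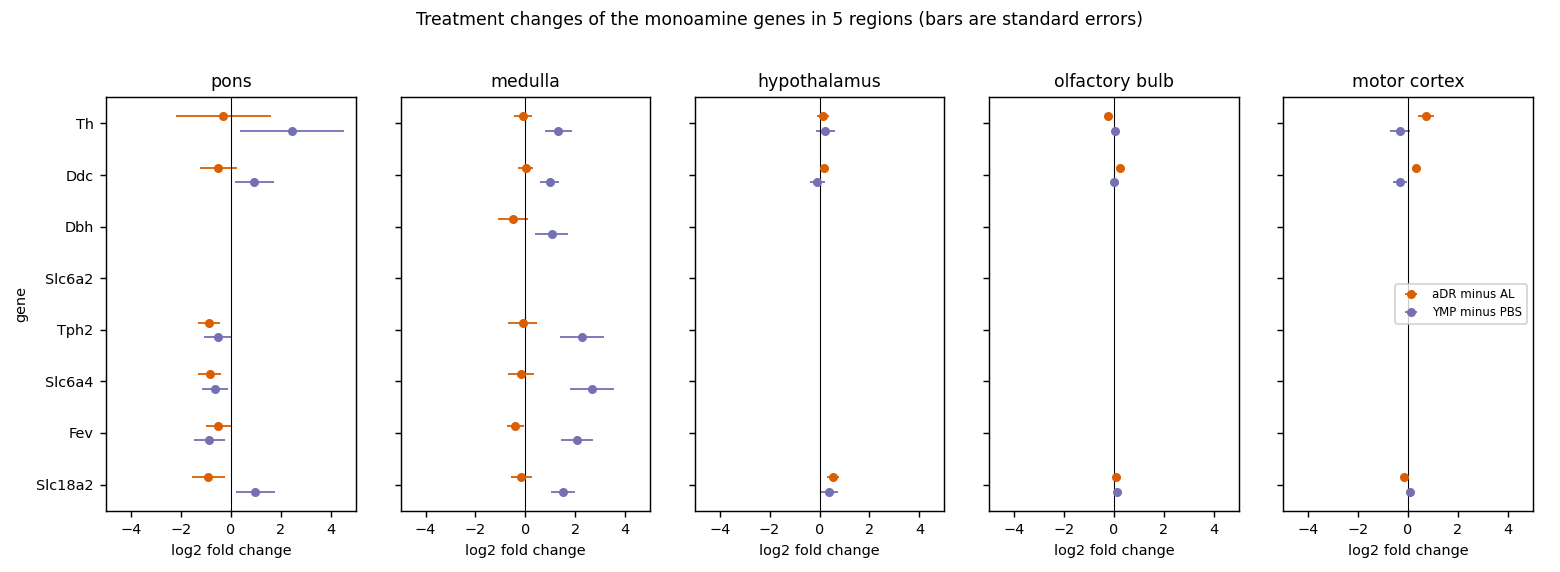
Log2 fold changes (x axis) of the 8 genes (y axis) in 5 regions, restricted minus freely fed in orange and young plasma minus PBS in purple. Bars are standard errors, and a gene without a point did not pass the low-count filter. The plasma points of medulla lie at 0.97 to 2.67 and those of olfactory bulb within 0.14 of 0.

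Liver was examined for diet, with 0.22% of genes called. Of the 8 genes only Ddc and Slc18a2 passed the filter there, and 0 were called. Ddc was 43.3, 32.1, 34.6 and 41.6 CPM in AL mice 63, 66, 68 and 69 and 29.4, 16.2, 11.7, 14.6 and 20.2 CPM in DR mice 61, 62, 64, 65 and 67. The groups did not overlap, with a log2 difference of -0.98 (SE 0.26, edgeR p 0.00283, adjusted p 0.179). The share of all liver genes without overlap is not given. DESeq2 gave an adjusted p of 0.0404 at a difference of -0.98, which is under the threshold. The share of liver genes that DESeq2 called is not given either. Th, Dbh and Tph2 had 0 counts in all 9 livers.

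One value per mouse, fitted over its brain regions, was then compared between groups. For diet 0 of 7 members were called (0.922% of genes were), and for plasma 0 of 8 (0% of genes). The unadjusted p was under 0.05 for 2 members in diet and 1 in plasma, against 16.1% and 8.09% of all genes. Th had a log2 difference of -0.27 for diet (SE 0.11, limma adjusted p 0.271). Its mouse values were 2.56, 2.79, 3.06 and 2.96 in AL mice 63, 66, 68 and 69 and 2.63, 2.37, 2.501, 2.54 and 2.79 in aDR mice 61, 62, 64, 65 and 67 (log2 CPM), and the groups overlapped. Without the libraries that stood apart the difference was -0.13 (adjusted p 0.825). Slc18a2 differed by -0.18 for diet (SE 0.076, limma adjusted p 0.283; -0.11 and 0.559 without those libraries). Tph2 differed by 0.27 for plasma (SE 0.10, limma adjusted p 0.567), with 0.580, 0.745, 0.410 and 0.392 in PBS mice 72, 76, 80 and 84 and 0.937, 0.806 and 0.660 in YMP mice 73, 77 and 81, where YMP mouse 81 lay below PBS mouse 76.

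**Figure D5:**
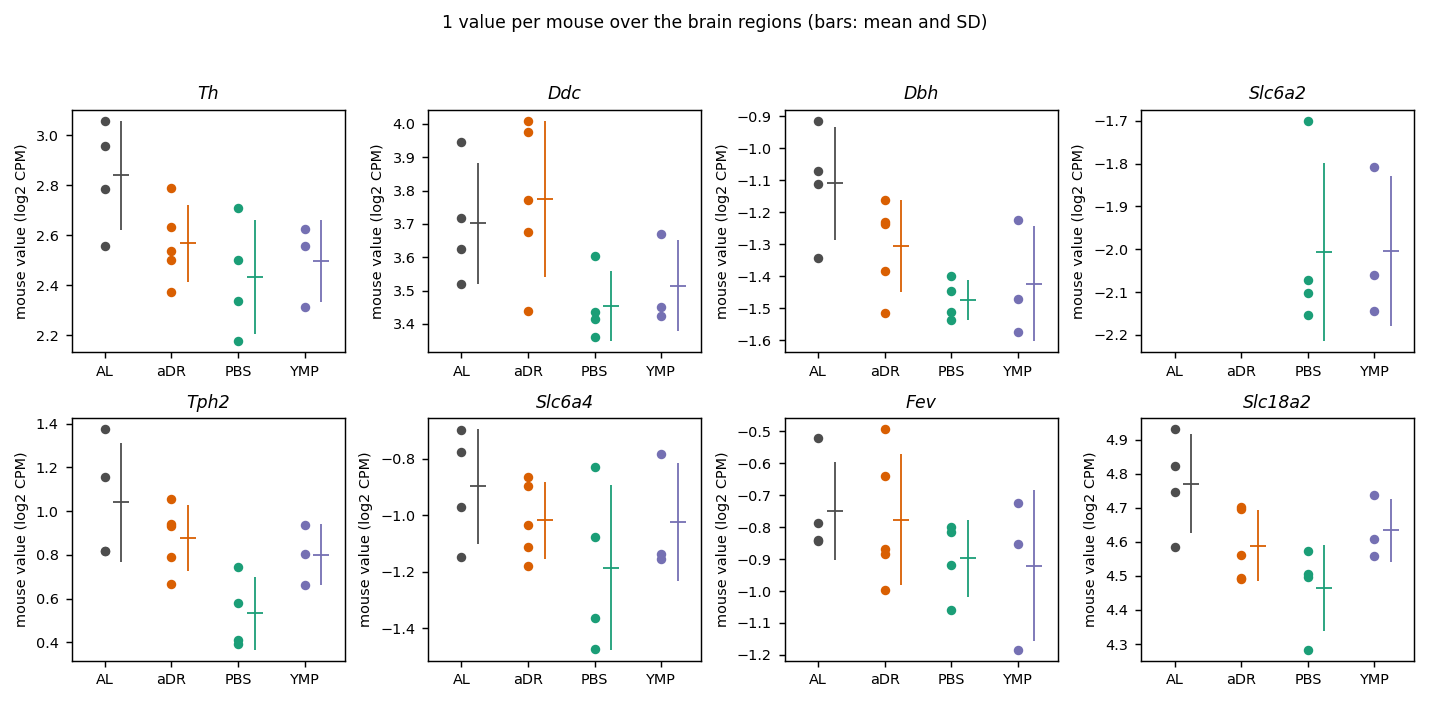
The value of each mouse over its brain regions (y axis, log2 CPM) for the 8 genes by group, 1 point per mouse, with mean and SD. Restricted and freely fed mice overlap for Th (2.37 to 2.79 against 2.56 to 3.06), and no gene was called.

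Whether an intervention acted differently from region to region was tested with the region by treatment terms. None of 7 members was called for diet (0.0128% of genes were) and none of 8 for plasma (0.786%). On data simulated for the plasma experiment, a change confined to pons was recovered for only a minority of the changed genes, so such a change could be missed. No such simulation was made for the diet experiment. The smallest p was that of Dbh for diet (p from edgeR 6.33e-04, adjusted p 0.618), and it was 0.976 without the 5 libraries and 0.914 without AL mouse 68, whose cerebellum library is described above.

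The wider pathway list held 33 further genes: cofactor enzymes, breakdown enzymes and other carriers, remaining enzymes and transporters, factors that set neuron identity, and autoreceptors. In pons 19 of 29 tested were higher than in the other regions in AL mice (background 28.8% of genes higher) and 14 of 28 in PBS mice (21.8%). In medulla 19 were higher in AL (31.8%) and 17 in PBS mice (30.1%). Hypothalamus had 17 higher in AL (26.5%) and 12 in PBS mice (23.8%), and the latter count was 6 without PBS mouse 80. Olfactory bulb had 4 higher in AL (33.5%) and 5 in PBS mice (32.3%). Of the 6 cofactor genes, 5 were higher in pons and 5 in medulla in both sets of control mice: Gch1, Gchfr, Qdpr, Spr and Pcbd1. This was not particular to the hindbrain, as hypothalamus had 5 higher in AL mice (Gchfr, Spr, Pts, Pcbd1 and Gch1) and 3 in PBS mice. Gch1, the first enzyme of tetrahydrobiopterin synthesis, was 8.35 to 31.5 CPM in the 6 pons libraries of control mice without AL mouse 68 (74.1 in that library) and had log2 differences from the other regions of 3.48 in AL and 3.20 in PBS mice. Its regulator Gchfr had 4.03 and 3.96. Of the identity factors, Lmx1b, a factor of serotonin and midbrain dopamine neurons, was higher in pons and medulla in both and was 1.32 to 5.56 CPM in those 6 libraries (12.98 in AL mouse 68). Gata3, a factor of hindbrain serotonin neurons among others, was 17.6 to 36.4 CPM in the same 6 (57.4 in AL mouse 68). Hdc, the histamine enzyme, was higher in hypothalamus alone among these 4 regions (3.67 and 2.51), but the PBS value was 1.25 (adjusted p 0.161) without PBS mouse 80. Slc6a3 was higher in pons, hypothalamus and olfactory bulb in both. Its difference in pons was 8.14 in AL mice without the libraries that stood apart and 8.32 in PBS mice (4.77 without PBS mouse 84). In that AL fit mouse 69 had 322 CPM of Slc6a3 in pons, against 1.59 and 2.73 CPM in mice 63 and 66.

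Neither intervention called a pathway gene within a region, in 293 diet tests and 286 plasma tests, or over the 15 regions (31 genes for each). Among the smallest p within regions were those of Nr4a2 in cerebellum (0.76, edgeR adjusted p 0.102) and Qdpr in olfactory bulb (-0.23, 0.141) for diet. For plasma they were those of Slc29a4 in corpus callosum (-4.60, 0.0683) and SVZ (-4.26, 0.0936) and Maob in hypothalamus (0.60, 0.881). Over regions, Slc18a1 (0.21, limma adjusted p 0.196), Lmx1b (-0.20, 0.229) and Gata3 (-0.21, 0.281) came first for diet, and Gch1 (0.55, 0.456), Slc22a3 (-0.26, 0.501) and Nr4a2 (0.57, 0.537) for plasma.

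Slc29a4, a low-affinity monoamine carrier, was the only pathway gene whose plasma effect differed between regions (edgeR adjusted p 6.38e-04), and it was not called without YMP mouse 77 (0.115) or YMP mouse 81 (0.496). It was 27.9 to 197 CPM in SVZ of 4 PBS mice and 3.29 to 6.73 CPM in 3 YMP mice, and 36.2 to 185 CPM in corpus callosum of 3 PBS mice against 3.87 and 5.63 CPM in 2 YMP mice. In the choroid plexus region it was 99.4 to 141 CPM in PBS mice and 23.7 to 141 CPM in YMP mice. The summed choroid plexus markers moved with it: 2802 to 19671 CPM in PBS and 6.73 to 10.9 CPM in YMP in SVZ, and 4998 to 18608 against 1.31 to 7.53 CPM in corpus callosum. Their part in the difference was not tested.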

How the data were processed

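RNA was extracted with RNeasy and libraries were made with Smart-Seq2 and Nextera XT, per the labels' protocols. The authors deposited raw counts of reads per gene, for 21076 genes and 238 libraries. The submitters' processing notes name Trim Galore 0.3.7, STAR 2.5.3a, DESeq2 and build GRCm38; the counting program and annotation are not given in the sources used here. CPM and log2 CPM were computed here from the deposited counts.

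Tests used R 4.3.3 with edgeR 4.0.16 (TMM, filterByExpr with 10 counts per library and 15 in total, quasi-likelihood test) within each region, over regions in control mice, and for region by treatment terms. limma 3.58.1 tested 1 value per mouse (log2 CPM with prior count 2, fitted for mouse with region as a second term). DESeq2 1.42.0 was an alternative. All p-values were Benjamini-Hochberg adjusted over all features tested and called under 0.05. Correlations used log2 CPM less the group mean and 100000 within-group permutations, or all of them where fewer. Scripts were tested on simulated data. There a change confined to pons, simulated for the plasma experiment only, was recovered for only a minority of the changed genes. The pass limit was lowered after that was seen.

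The members and lists were chosen with earlier results of these data known. All 8 members are named, with values per library in the region where they were highest, the 3 region tests with the smallest p in each experiment, the 3 most similar genes, and for the pathway list the genes called or else the 3 with the smallest p. Some genes of that list are not reported here. Dbh and Slc6a2, whose highest mean rests on 1 library, are given in medulla and cerebellum. Replicate numbers are mouse numbers: treatment groups share none, and regions of 1 mouse were checked for pairing (mean correlation of their deviations 0.032 in AL and 0.117 in PBS mice, against -0.010 and -0.039 for different mice). No pair of replicates agreed within sampling noise (smallest chi-square per degree of freedom 1.29 over 357 pairs). Alternatives were another scaling, no low-count filter, DESeq2, another prior count, a block for mouse, subsets of regions or libraries, and each mouse left out.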

Additional observations from a re-analysis of the deposited data

Results flagged for a closer look

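In 12 of 41 groups of 4 or 5 libraries, 1 library lay far from the others by Dixon's test at the 95% level. That level assumes normally distributed values, while CPM here is skewed and in places 0. The same libraries also recur across genes that vary together, so no chance rate is set beside this count. In pons, the library of aDR mouse 64 was the highest of its group for Th (1330 CPM), Ddc (249 CPM) and Slc18a2 (501 CPM), and that of AL mouse 68 for Slc18a2 (820 CPM). Both had low hindbrain markers. Fev was lowest in pons of AL mouse 69 (5.73 CPM). In medulla, Dbh was highest in aDR mouse 65 (8.26 CPM), Slc6a2 was highest in PBS mouse 72 (6.79 CPM) and Slc6a4 was lowest in aDR mouse 62 (2.06 CPM, 3 counts). In cerebellum, AL mouse 68 was highest for Dbh (48.4 CPM) and Slc6a2 (38.1 CPM), and the Slc6a2 value in the aDR group was a single count (0.0827 CPM). Ddc in motor cortex of AL mice had its highest value at 4.59 CPM, within a narrow range from 4.23 CPM.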

How the results depend on the processing

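The member counts for treatment were 0 in the 6 brain comparisons under all alternatives run. In liver, Ddc passed the threshold with DESeq2 but not with edgeR. With the mouse as a replicate block, pons minus medulla gave 5 members in AL and 6 in PBS mice, and the treatment counts stayed at 0; the only call lost to the block was that of Fev in PBS mice (1.87, adjusted p 0.0828). Without the 5 libraries that stand apart, chosen after seeing the data, the AL count of members higher in olfactory bulb went from 1 to 2 and that for pons minus medulla from 5 to 3. With each mouse left out, these were 1 to 2 and 3 to 4, and the PBS count for pons minus medulla was 2 to 6. The plasma experiment alone gave 0 of the 14 correlations past the threshold, with few permutations possible.

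Directions that turned were all of differences that were not called, except Th, pons minus medulla, in PBS mice (-0.29 to 4.43 with each mouse left out). That of Fev in AL mice spanned -0.23 to 0.61. For diet, Th in pons was 0.018 without doubtful libraries and -3.22 to 1.53 with each mouse left out, Ddc in pons -1.44 to 0.26 and Dbh in medulla -0.85 to 0.55. Across regions, Ddc was -0.11 and Dbh 0.13 in pons, medulla, hypothalamus and olfactory bulb only, Dbh was 0.0076 with voom and the block, and Fev was 0.015 with prior count 0.5, 0.077 without doubtful libraries and -0.097 to 0.046 with each mouse left out. For plasma, without the 5 libraries, pons gave -5.80 for Th, -0.82 for Ddc and -0.64 for Slc18a2, the same values as without YMP mouse 77; the upper ends with other mice left out were 6.08, 1.54 and 1.46. Th in olfactory bulb spanned -0.0096 to 0.072. Across regions, without the 5 libraries, Th was -0.084, Slc6a2 -2.47e-05 and Fev 0.016. With voom and the block Slc6a2 was -0.072 and Fev 0.24, and Fev was 0.0052 without choroid plexus and corpus callosum and 0.18 in the 4 regions named above. With each mouse left out, Ddc spanned -0.013 to 0.11, Dbh -0.055 to 0.12, Slc6a2 -0.097 to 0.077 and Fev -0.12 to 0.11. The causes were not tested. At this depth, within single regions, Slc6a2 passed the low-count filter for treatment in none, Dbh in medulla only and Slc6a4 in pons and medulla only.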
